A study of Mus musculus with 9 samples.

Results

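Brain cells of C57BL/6 mice at postnatal day 60, sorted by a PLP::GFP reporter, were compared here with cells sorted by a PDGFRa::GFP reporter. The members are 6 of the 9 RNA libraries of the series, 3 with each of these reporters, chosen by the reporter that the labels name. The labels call the PDGFRa::GFP cells oligodendrocyte progenitor cells and the PLP::GFP cells pre-myelinating oligodendrocytes. The other 3 libraries, from NDRG1-eGFP cells, which the labels call myelinating oligodendrocytes, entered the fit only to help estimate the spread. Both groups share the strain, age, tissue and isolation, with RNA and DNA taken from the same pellets by a column kit. They do not share the reporter. Each cell group comes with its own reporter, so effects of the reporter mice and of the cell group cannot be told apart here. Y-linked genes, described below, differed between libraries within each group and were not balanced between the groups. The construct that drives each reporter, and whether animals were pooled, are not given in the sources used here.

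Oligodendrocytes, the cells that wrap axons in myelin, arise in the adult brain from progenitors that carry the platelet-derived growth factor receptor PDGFRa. A progenitor that leaves the cell cycle passes through a newly formed stage, marked by genes such as Bcas1, Enpp6 and Bmp4, before it makes the sheath proteins encoded by genes such as Mbp and Mog. PDGFRa is also made by fibroblast-like cells of the meninges and vessels, so its reporter does not mark a single cell type.

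The values are the authors' deposited log2 values, 1 per gene and library, for 11315 genes. A difference is PLP-GFP minus PDGFRa-GFP, and a gene was called at an adjusted p under 0.05 in limma. Whether the replicates of a group are different animals is not stated in the labels, and the p-values rest on the spread from library to library alone. In sorted bulk RNA, fewer cells of a type and less RNA per cell cannot be told apart.

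Pdgfra, the gene that names the progenitor reporter, was examined first. It was 6.87, 7.54 and 5.47 in PDGFRa-GFP replicates 1 to 3 and 1.52, 4.98 and 1.64 in PLP-GFP replicates 1 to 3. All 3 PDGFRa-GFP libraries lay above the PLP-GFP libraries, by 0.50 at the closest, with a log2 fold change of -3.92 ± 0.999 (SE, n = 3 per group; limma adjusted p = 0.0274). This call was kept in 2 of the 6 fits that left out 1 library. Every one of these values was below the library median of 10.57. Of the summed linear values (2 to the power of each deposited value), myelin sheath genes took 13.4% to 15.5% in PDGFRa-GFP libraries and 14.5% to 15.2% in PLP-GFP libraries. Low Pdgfra beside so much myelin RNA goes against the progenitor label, and the groups are called by their reporters.

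Most markers of progenitors were not called. Of 15 measured markers, 1 was lower in PLP-GFP cells (Pdgfra) and 1 higher (Lrrn1, a leucine-rich repeat membrane protein, 0.55 ± 0.14 (SE, n = 3 per group; limma adjusted p = 0.0274)). Over all genes tested, 17% were called, 8.46% higher and 8.53% lower. At an unadjusted p under 0.05 in limma, 6 markers were lower and 1 higher, and the libraries of the groups did not overlap in 6 that were lower and 1 that was higher. Over all genes the groups did not overlap in 20% in the lower and 22.3% in the higher direction. Without PDGFRa-GFP replicate 3, 5 were called lower and 1 higher. Cspg4, which encodes the progenitor proteoglycan NG2, was 6.84, 8.05 and 6.79 in PDGFRa-GFP replicates 1 to 3 and 6.28, 6.39 and 6.83 in PLP-GFP replicates 1 to 3, and the groups overlapped. Vcan, the gene of the matrix proteoglycan versican, was 7.41, 8.87 and 5.27 against 4.45, 2.49 and 3.24 in the same order, with no overlap, and missed the threshold (-3.79 ± 1.18 (SE, n = 3 per group; limma adjusted p = 0.0507)). Olig1, a lineage transcription factor gene, ran from 16.38 to 16.86 in the 6 libraries. The progenitor markers together held 0.231% to 0.269% of the summed linear values in a PDGFRa-GFP library and 0.227% to 0.234% in a PLP-GFP library. Such a sum is weighted toward Olig1, the highest marker of the list, and says little about the lower ones. Over the 15 markers the median difference was -0.73, and -0.95 without PDGFRa-GFP replicate 3.

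Myelin sheath genes stood at nearly the same level in both groups. Of 27 measured genes, none was higher and 3 were lower in PLP-GFP cells, and the median difference was -0.005, against 0.03 over all genes. The 3 were Opalin, a glycoprotein of mature oligodendrocytes (-0.75 ± 0.18 (SE, n = 3 per group; limma adjusted p = 0.0253)), Pllp, the raft protein plasmolipin (-0.74, adjusted p = 0.0152), and Mog, a glycoprotein on the sheath's outer face (-0.54, adjusted p = 0.0243). At an unadjusted p under 0.05 in limma, 4 members were higher and 8 lower. Without PLP-GFP replicate 2 none of the 27 was called. Mbp, the basic protein that compacts the sheath, was 19.71, 19.57 and 17.55 in PDGFRa-GFP replicates 1 to 3 and 19.17, 19.17 and 19.40 in PLP-GFP replicates 1 to 3. Here replicate 3 of PDGFRa-GFP was the low library, and the other 5 lay between 19.17 and 19.71.

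The PDGFRa-GFP libraries were not alike. Replicates 1 and 2 correlated at Pearson r = 0.982 across genes and differed by at least 1 on the log2 scale in 5.2% of genes, a spread close to that among PLP-GFP libraries (3.2% to 4.4%). Replicate 3 differed by that much from replicates 1 and 2 in 18.2% and 18.3% of genes, and from PLP-GFP replicates 1 to 3 in 20%, 26.8% and 25.4%. Replicate 3 was at least 1 above both other PDGFRa-GFP libraries in 546 genes and at least 1 below both in 847; for replicate 1 these counts were 113 and 119, and for replicate 2 they were 121 and 147. It also had the fewest distinct values, 4454, against 4859 to 5473 in the other 5 libraries. No library was left out, and counts without replicate 3 are given beside many of the results.

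The genes furthest from replicates 1 and 2 in replicate 3 included pituitary, Y-linked and immediate early genes. Gh, the growth hormone gene of the pituitary, was 3.19, 4.96 and 11.10 in PDGFRa-GFP replicates 1 to 3 and 10.89, 1.57 and 1.64 in PLP-GFP replicates 1 to 3. It was high in PDGFRa-GFP replicate 3 and PLP-GFP replicate 1 and low in the other 4, and the pituitary genes Prl and Pomc were highest in the same 2 libraries. Ddx3y, a Y-linked helicase gene, was 9.26, 12.43 and 0.32 in PDGFRa-GFP replicates 1 to 3 and 13.23, 1.57 and 1.64 in PLP-GFP replicates 1 to 3, and Eif2s3y, also Y-linked, was high and low in the same libraries. Among the 10 named genes that were furthest below, 5 were immediate early genes (Egr2, Egr1, Fos, Junb and Fosb), with Egr2 at 12.36, 12.41 and 4.01 against 6.70, 5.52 and 5.67. Bcas1, which marks newly forming oligodendrocytes, was 14.36, 14.49 and 11.45 in PDGFRa-GFP replicates 1 to 3 and 13.79, 13.75 and 14.03 in PLP-GFP replicates 1 to 3, lowest by over 2 in replicate 3.

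**Figure D1:**
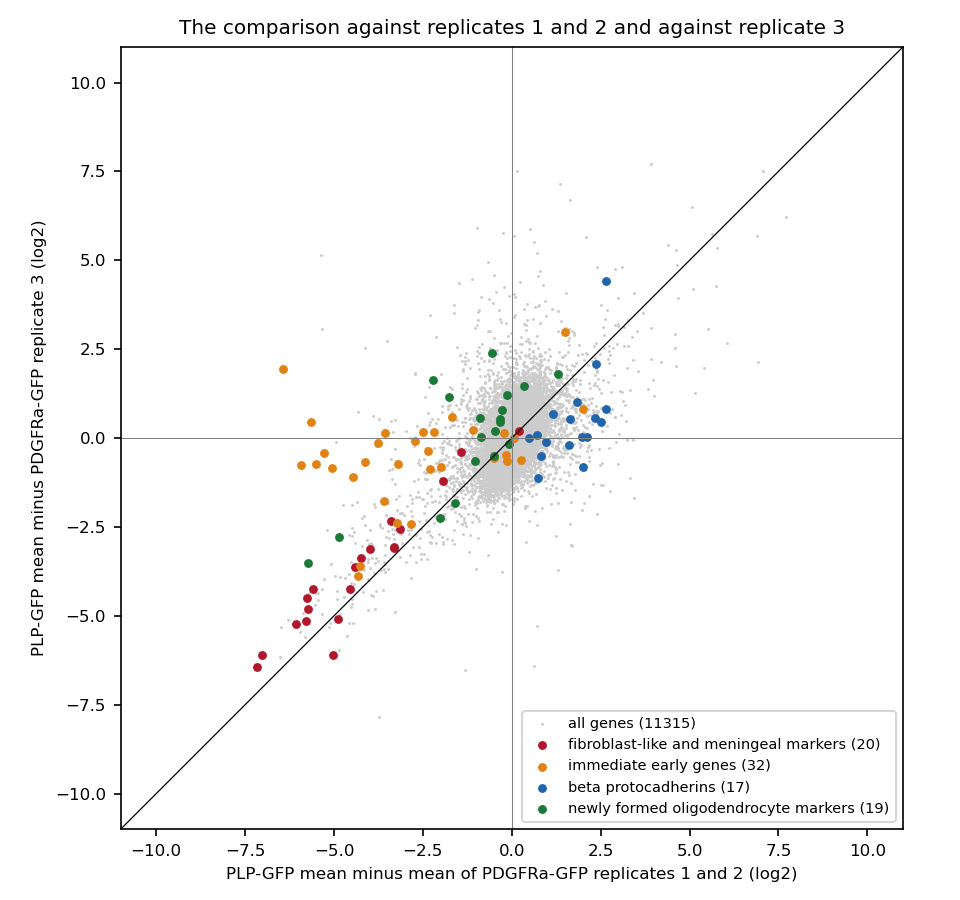
Each point is 1 gene: the x axis gives the PLP-GFP mean minus the mean of PDGFRa-GFP replicates 1 and 2, the y axis the PLP-GFP mean minus PDGFRa-GFP replicate 3, both on the log2 scale, with the line of equality. Fibroblast-like markers (red) lie along the line at the lower left, while most immediate early genes (orange) lie far left of 0 but near 0 on the y axis, and beta protocadherins (blue) lie right of 0 but mostly near 0 on the y axis.

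Of the 11315 genes, PLP-GFP cells had 957 higher and 965 lower calls. In 954 and 953 of these (8.43% and 8.42% of genes) the libraries of the groups did not overlap, which, called or not, held for 22.3% of all genes in the higher and 20% in the lower direction. A gap of at least 1 between the nearest libraries was found in 89 called genes that were higher and 165 that were lower. Without PDGFRa-GFP replicate 3 the counts were 1449 and 1340 (12.8% and 11.8% of genes), and 1766 of the 1922 calls were made again in the same direction. Without PLP-GFP replicate 1 the counts were 604 and 723, without its replicate 2 they were 92 and 186, and without its replicate 3 they were 144 and 225. With PDGFRa-GFP replicate 2 left out there were 376 and 383, and with its replicate 1 left out 1060 and 1103. In all 6 of these fits 87 genes were called higher and 167 lower.

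The widest separations fell on single genes of unlike function. Fcho1 (chr8:71708387-71725716, GRCm38), which helps to start clathrin-coated pits, was 7.04, 8.11 and 7.13 in PDGFRa-GFP replicates 1 to 3 and 14.63, 14.49 and 14.81 in PLP-GFP replicates 1 to 3. The gap between the groups, 6.38, was the widest among the higher genes named here, with a log2 fold change of 7.21 ± 1.06 (SE, n = 3 per group; limma adjusted p = 0.0041). Kcnj10 (chr1:172341210-172374085), the glial potassium channel Kir4.1, was 13.53, 13.49 and 12.95 in PDGFRa-GFP replicates 1 to 3 and 15.98, 16.23 and 16.03 in PLP-GFP replicates 1 to 3. Replicate 3 was the lowest of the PDGFRa-GFP libraries and the groups were 2.45 apart (2.76 ± 0.18 (SE, n = 3 per group; limma adjusted p = 2.01e-05)). Pxdn (chr12:29937608-30017658), a peroxidase that crosslinks collagen IV, was 10.16, 9.81 and 8.29 in PDGFRa-GFP replicates 1 to 3 and 12.75, 13.31 and 13.21 in PLP-GFP replicates 1 to 3, also with replicate 3 lowest (3.67 ± 0.43 (SE, n = 3 per group; limma adjusted p = 0.00119)).

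Several of the other high genes were as even within groups. Zrsr1 (chr11:22972005-22976496), an imprinted gene related to a splicing factor, was 9.10, 9.38 and 9.02 in PDGFRa-GFP replicates 1 to 3 and 12.35, 12.23 and 12.14 in PLP-GFP replicates 1 to 3 (3.07 ± 0.18 (SE, n = 3 per group; limma adjusted p = 1.4e-05)). Adi1, an enzyme of the methionine salvage pathway, was 14.40, 14.32 and 14.45 in PDGFRa-GFP replicates 1 to 3 and 16.73, 16.48 and 16.63 in PLP-GFP replicates 1 to 3 (2.22 ± 0.25 (SE, n = 3 per group; limma adjusted p = 0.000964)). Galnt10, which starts O-linked glycans, was 9.49, 9.16 and 9.38 in PDGFRa-GFP replicates 1 to 3 and 11.90, 12.02 and 11.85 in PLP-GFP replicates 1 to 3 (2.58 ± 0.20 (SE, n = 3 per group; limma adjusted p = 9.53e-05)). In each of these 3 genes every PLP-GFP library was over 2 above every PDGFRa-GFP library. Dlk2, a Delta-like membrane protein (3.63), Hddc3, a hydrolase of the stress nucleotide ppGpp (2.11), Wdfy1, an endosomal FYVE domain protein (2.40), Nsg1, a neuronal vesicle protein (1.73), Gpr75, an orphan receptor (2.11), and Scrg1 (2.69) were higher too.

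Of the low genes, Dusp26 (chr8:31089471-31097047), a phosphatase of MAP kinases, had the smallest adjusted p. It was 14.73, 15.01 and 14.81 in PDGFRa-GFP replicates 1 to 3 and 10.68, 10.72 and 10.57 in PLP-GFP replicates 1 to 3. Within each group the libraries lay close together, replicate 3 included, and the log2 fold change was -4.20 ± 0.15 (SE, n = 3 per group; limma adjusted p = 4.66e-07). Fggy, a carbohydrate kinase, was 9.92, 10.23 and 9.99 in PDGFRa-GFP replicates 1 to 3 and 6.31, 5.60 and 6.21 in PLP-GFP replicates 1 to 3 (-4.01 ± 0.23 (SE, n = 3 per group; limma adjusted p = 1.4e-05)). Lpcat2, which makes and remodels phospholipids such as platelet-activating factor, was 11.82, 11.85 and 11.87 in PDGFRa-GFP replicates 1 to 3 and 9.13, 9.20 and 9.11 in PLP-GFP replicates 1 to 3 (-2.70 ± 0.16 (SE, n = 3 per group; limma adjusted p = 1.4e-05)). Both were even within each group, replicate 3 included. Pqlc2, a lysosomal exporter of cationic amino acids (-2.96), and Ephb6, an Eph receptor without kinase activity (-2.88), were lower as well.

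The others of the low genes chosen in this way, Mgp, Slc47a1, Efemp1, Fxyd5, Nov, Thbd, Fos, Fn1, Col1a2 and F3, are described below. For all 28 genes with the largest differences or gaps (13 higher, 15 lower), the mean of the NDRG1-eGFP libraries lay nearer to the PDGFRa-GFP mean than to the PLP-GFP mean. Kcnj10, for example, averaged 13.67 ± 0.23 (SD, n = 3) in NDRG1-eGFP cells, and Dusp26 15.20 ± 0.29. These genes were selected on the other 2 groups, so this is a description. Whether their differences belong to the cells or to the reporter mice was not tested. Of the 28, 25 were called in every fit that left out 1 library; the exceptions were Wdfy1 and F3 (5 of 6 each) and Fos (1 of 6).

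**Figure D2:**
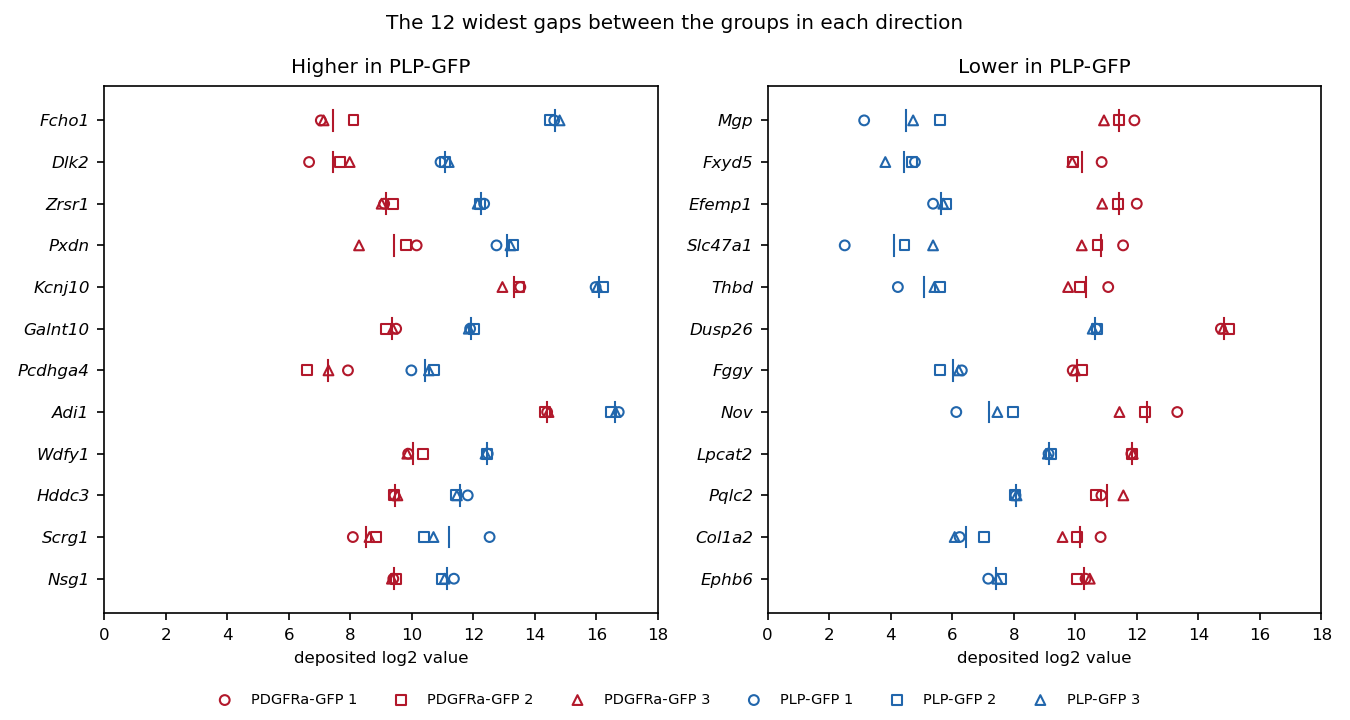
Deposited log2 values (x axis) of the 12 genes with the widest gap between groups in each direction (rows), with 1 symbol per library and a tick at each group's mean (red, PDGFRa-GFP; blue, PLP-GFP). In Fcho1 the PDGFRa-GFP libraries sit between 7.04 and 8.11 and the PLP-GFP libraries between 14.49 and 14.81; in Dusp26 they sit near 15 and near 11.

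More genes of newly formed oligodendrocytes were called lower than higher. Of 19 measured markers, 6 (31.6%) were lower and 1 (5.3%) was higher in PLP-GFP cells, with a median of -0.40. Over all genes 8.53% were called lower and 8.46% higher. Rnf122, a ubiquitin ligase gene, was 12.24, 12.56 and 12.62 in PDGFRa-GFP replicates 1 to 3 and 10.30, 10.42 and 10.39 in PLP-GFP replicates 1 to 3 (-2.10 ± 0.13 (SE, n = 3 per group; limma adjusted p = 2.01e-05)). Tmem163, a zinc transporter gene, was 12.16, 12.33 and 12.48 in PDGFRa-GFP replicates 1 to 3 and 10.17, 10.98 and 10.79 in PLP-GFP replicates 1 to 3 (-1.68 ± 0.22 (SE, n = 3 per group; limma adjusted p = 0.00211)). In both genes the 3 PDGFRa-GFP libraries lay close together, and every one was over 1 above the PLP-GFP libraries.

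Bmp4, a secreted bone morphogenetic protein, was 8.74, 9.08 and 6.83 in PDGFRa-GFP replicates 1 to 3 and 4.57, 3.37 and 4.21 in PLP-GFP replicates 1 to 3 (-4.17 ± 0.78 (SE, n = 3 per group; limma adjusted p = 0.0106)), and Neu4, a sialidase, was 8.69, 9.90 and 7.07 against 4.03, 3.03 and 3.61 in the same order (-5.00, adjusted p = 0.0369). In replicate 3 both stood between replicates 1 and 2 and the PLP-GFP libraries. Mpzl1 (-0.52) and the small GTPase gene Rras2 (-0.91) were the other lower members. Chst3, a chondroitin sulfotransferase, was the higher one, at 10.55, 10.90 and 10.22 in PDGFRa-GFP replicates 1 to 3 and 11.95, 12.23 and 11.87 in PLP-GFP replicates 1 to 3 (1.46 ± 0.22 (SE, n = 3 per group; limma adjusted p = 0.00473)). Gpr17, a receptor of cells committed to differentiate, was 11.44, 12.64 and 8.20 in PDGFRa-GFP replicates 1 to 3 and 9.68, 9.88 and 9.93 in PLP-GFP replicates 1 to 3: replicates 1 and 2 were above and replicate 3 below every PLP-GFP library. Over the 19 markers the median of replicates 1 and 2 was 0.57 above the PLP-GFP mean and that of replicate 3 0.44 below it. Without replicate 3, 9 were lower and 1 was higher; without PLP-GFP replicate 2, 2 were lower and 1 was higher.

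Markers of mature oligodendrocyte states were lower in 7 of 28 cases and higher in none (3 at an unadjusted p under 0.05 in limma; median -0.42; without PDGFRa-GFP replicate 3, 13 lower; without PLP-GFP replicate 2, 3 lower). Most of these genes have short transcripts, with a median length of 1996 bases, and 22.57% of all genes in the shortest of 5 equal groups by length (up to 2072 bases) were lower. After removal of the length trend described below, 4 were lower (median -0.19). Klk6, a secreted protease, was 14.42, 14.64 and 13.96 in PDGFRa-GFP replicates 1 to 3 and 12.85, 12.75 and 12.88 in PLP-GFP replicates 1 to 3 (-1.51 ± 0.24 (SE, n = 3 per group; limma adjusted p = 0.00527)). Ninj2, an adhesion protein, was 12.11, 12.55 and 12.99 in PDGFRa-GFP replicates 1 to 3 and 10.96, 10.77 and 10.81 in PLP-GFP replicates 1 to 3 (-1.70 ± 0.20 (SE, n = 3 per group; limma adjusted p = 0.00137)). The PDGFRa-GFP libraries were over 1 above all PLP-GFP libraries in both. Sec11c, a subunit of the signal peptidase (-1.04), Mgst3, a glutathione transferase of membranes (-1.25), Serpinb1a, a protease inhibitor (-0.60), Hopx (-1.14) and the annexin gene Anxa5 (-0.55) were the other 5. Qdpr, Car2, Ptgds and Apod, also of this list, were not called.

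Among 29 transcription factor genes of the lineage 5 were lower and 2 higher. Id1, Id2 and Id3 encode inhibitors that bind basic helix-loop-helix factors and hold back differentiation. Id1 was 8.82, 7.89 and 7.95 in PDGFRa-GFP replicates 1 to 3 and 5.67, 5.20 and 4.88 in PLP-GFP replicates 1 to 3 (-2.97 ± 0.34 (SE, n = 3 per group; limma adjusted p = 0.00104)). Id2 was 9.82, 9.99 and 9.26 in PDGFRa-GFP replicates 1 to 3 and 7.16, 6.85 and 7.24 in PLP-GFP replicates 1 to 3 (-2.61 ± 0.28 (SE, n = 3 per group; limma adjusted p = 0.000873)). Id3 was 9.74, 9.42 and 9.70 against 8.40, 8.09 and 8.45 in the same order (-1.31 ± 0.22 (SE, n = 3 per group; limma adjusted p = 0.00777)). All 3 genes were separated between the groups in every library, and each was called in all 6 fits that left out 1 library.

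Sox4, a factor of immature cells (-2.27, adjusted p = 0.015), and Zfp488 (-0.97, with shared sequence) were lower. Myrf, the factor that drives myelin genes, was 15.84, 15.69 and 15.11 in PDGFRa-GFP replicates 1 to 3 and 16.05, 16.26 and 16.14 in PLP-GFP replicates 1 to 3 and was higher by 0.61 ± 0.18 (adjusted p = 0.0424; limma). Etv5, a factor induced by growth factor signals, was higher by 1.34, and part of its transcript is shared with another locus. With the length trend described below removed, Myrf had 0.33 and was not called, while Id1 (-2.51), Id2 (-2.37) and Id3 (-0.89) were called.

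Genes of fibroblast-like and meningeal cells were the list with the lowest median, -4.30, in PLP-GFP cells. Of 20 measured genes, 16 were lower and none higher, nor was any higher at an unadjusted p under 0.05 in limma. Mgp, a matrix inhibitor of calcification, was 11.92, 11.42 and 10.93 in PDGFRa-GFP replicates 1 to 3 and 3.14, 5.60 and 4.73 in PLP-GFP replicates 1 to 3 (-6.94 ± 0.67 (SE, n = 3 per group; limma adjusted p = 0.000413)). Efemp1, the matrix protein fibulin-3, was 12, 11.39 and 10.88 in PDGFRa-GFP replicates 1 to 3 and 5.38, 5.81 and 5.71 in PLP-GFP replicates 1 to 3 (-5.79 ± 0.34 (SE, n = 3 per group; limma adjusted p = 1.42e-05)). Slc47a1, an exporter of organic cations, was 11.55, 10.72 and 10.21 in PDGFRa-GFP replicates 1 to 3 and 2.50, 4.45 and 5.38 in PLP-GFP replicates 1 to 3 (-6.72 ± 0.73 (SE, n = 3 per group; limma adjusted p = 0.000873)). All PDGFRa-GFP libraries, replicate 3 among them, lay over 4 above all PLP-GFP libraries in these 3 genes, and replicate 1 was the highest.

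The collagen genes of this list were low in the same libraries. Col1a2 was 10.82, 10.06 and 9.59 in PDGFRa-GFP replicates 1 to 3 and 6.24, 7.03 and 6.08 in PLP-GFP replicates 1 to 3 (-3.71 ± 0.35 (SE, n = 3 per group; limma adjusted p = 0.000361)), and Col1a1, Col3a1 and Col6a1 had log2 fold changes of -5.58, -4.95 and -4.14. Dcn, the proteoglycan decorin, had -5.39, Penk, the enkephalin precursor, -5.35, and Nov, a CCN family matricellular protein, -5.15. Bgn, Igfbp2, Igf2 and Slc13a4 were not called. Col3a1 and Dcn in PLP-GFP replicate 1 stood at 1.52, a value that 75 genes of that library share, so the size of their differences depends on how the authors' scaling placed low values.

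The 20 genes together made up 0.0531%, 0.0299% and 0.0227% of the summed linear values of PDGFRa-GFP replicates 1 to 3, and 0.00105% to 0.00178% in PLP-GFP libraries. No gene of the list was under 5 in all 6 libraries. In the fits that left out a library, used only these 6 libraries, recentred the values or removed the length trend, 15 to 17 members were lower. Foxc1, Foxc2 and Foxd1, forkhead factors of mesenchyme and meninges, were lower too (-5.26, -5.75 and -4.51). Foxc1 was 8.57, 7.97 and 6.92 in PDGFRa-GFP replicates 1 to 3 and 0.31, 2.49 and 4.88 in PLP-GFP replicates 1 to 3, with the PLP-GFP libraries spread over more than 4.

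Related families had lower calls too. Serping1 is a member of the fibroblast-like list and is counted again among the serpins. Over all genes 8.53% were called lower and 8.46% higher, against lower shares of 63.6% of serpins, 56.25% of S100 proteins and annexins and 20.5% of matrix genes. Of 11 serpins, a family of protease inhibitors, 7 were lower and none higher (8 and 0 at an unadjusted p under 0.05 in limma), among them Serpinf1 (PEDF), at 8.70, 8.04 and 8.37 in PDGFRa-GFP replicates 1 to 3 and 5.75, 5.78 and 5.93 in PLP-GFP replicates 1 to 3 (-2.55 ± 0.40 (SE, n = 3 per group; limma adjusted p = 0.00527)), Serpinh1, the collagen chaperone HSP47 (-1.82), Serpinb9 (-4.01) and Serping1 (-3.04); with the length trend removed 4 were. Of 16 S100 proteins and annexins, which bind calcium, 9 were lower, with Anxa3 at -3.67 and S100a10 at -1.55, and 4 were with the trend removed. Their median difference was -0.82, then -0.24. Their transcripts are short, with a median of 1361 bases, and 22.57% of all genes in the shortest of the 5 length groups were lower. Of 39 genes of the extracellular matrix and its remodelling, 8 were lower, including Thbs1 (thrombospondin-1, -4.34), Fn1 (fibronectin, -3.84), Col8a1 (-3.70) and Lama2 (-1.08), and 4 were higher, Pxdn, Col6a3 (1.24), Lamc1 (0.78) and Adamts4 (0.51). Without PDGFRa-GFP replicate 3, 15 of the matrix genes were lower and 3 higher, and without the length trend 7 were lower and 1 higher. Thbd, thrombomodulin, was 11.07, 10.16 and 9.77 in PDGFRa-GFP replicates 1 to 3 and 4.23, 5.60 and 5.42 in PLP-GFP replicates 1 to 3. F3, tissue factor, had -3.27, and Fxyd5, a regulator of the sodium pump, -5.80. The part of fibroblast-like RNA in these family counts was not tested.

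Lists of other cell types gave calls in both directions with all libraries. Over all genes 8.46% were called higher and 8.53% lower. Of the lists in this paragraph, the endothelial list, with only 6 genes, had the largest share called. Of 19 microglial genes 2 were lower, C1qc (-1.40) and Tmem119 (-0.85), and the list made up 0.0155% to 0.0206% of a PDGFRa-GFP library and 0.0147% to 0.0191% of a PLP-GFP library. Without PDGFRa-GFP replicate 3, 6 microglial genes were lower and 1 higher, and with the length trend removed none was called. Of 21 astrocyte genes 2 were higher, Kcnj10 and Ndrg2 (12.60, 12.68 and 12.50 in PDGFRa-GFP replicates 1 to 3 and 14.16, 14.15 and 14.20 in PLP-GFP replicates 1 to 3; 1.58 ± 0.14 (SE, n = 3 per group; limma adjusted p = 0.000212)), and the connexin gene Gjb6 was lower (-3.29); without replicate 3 these counts were 3 and 4. Of 12 neuronal genes Eno2, the neuronal enolase, was higher, at 8.96, 8.80 and 9.72 in PDGFRa-GFP replicates 1 to 3 and 11.36, 11.15 and 11.10 in PLP-GFP replicates 1 to 3 (2.04 ± 0.24 (SE, n = 3 per group; limma adjusted p = 0.00117)). Of 6 endothelial genes 2 were lower, Thbd and Itm2a, and Cldn5 was higher from values of 0.33 to 1.80 in PDGFRa-GFP libraries (5.26). None of 11 ependymal genes was called in limma, and at an unadjusted p under 0.05 none was higher and 1 was lower (Foxj1). Yet the list's median difference was 1.63, and 2.48 without PDGFRa-GFP replicate 3. In 4 of the 11 every PLP-GFP library lay above every PDGFRa-GFP library, and in 0 the reverse held. The values were low, with medians of 3.02, 3.99 and 5.65 in PDGFRa-GFP replicates 1 to 3 and 5.63, 5.73 and 5.48 in PLP-GFP replicates 1 to 3.

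Immediate early genes, which cells transcribe within minutes of a stimulus, were, of these 6 libraries, high in PDGFRa-GFP replicates 1 and 2. Many are switched on through the cyclic AMP response element, of which TGACGTCA is the full form and TGACG the core. The 200 bases before the start of 4 of these genes are printed below from RefSeq (GRCm38.p6), 5′ to 3′ on the gene's strand, because they belong to the genes whose values separate replicate 3 from replicates 1 and 2. Capitals mark TGACGTCA, and TGACG or its complement CGTCA elsewhere.
Fos (chr12:85473690-85473889, plus strand): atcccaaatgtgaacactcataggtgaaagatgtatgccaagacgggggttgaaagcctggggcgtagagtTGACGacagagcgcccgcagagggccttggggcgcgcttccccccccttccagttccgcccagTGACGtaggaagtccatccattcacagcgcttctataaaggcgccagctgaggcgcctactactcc
Nr4a1 (chr15:101266646-101266845, plus strand): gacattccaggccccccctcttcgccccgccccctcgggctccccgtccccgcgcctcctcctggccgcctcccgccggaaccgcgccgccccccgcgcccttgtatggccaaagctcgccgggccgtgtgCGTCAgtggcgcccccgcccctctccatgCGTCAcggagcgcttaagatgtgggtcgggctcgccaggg
Dusp1 (chr17:26508473-26508672, minus strand): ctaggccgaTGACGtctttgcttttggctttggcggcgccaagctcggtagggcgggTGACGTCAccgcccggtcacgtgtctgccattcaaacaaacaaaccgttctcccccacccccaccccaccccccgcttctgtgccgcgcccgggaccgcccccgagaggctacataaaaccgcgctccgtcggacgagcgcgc
Btg2 (chr1:134079156-134079355, minus strand): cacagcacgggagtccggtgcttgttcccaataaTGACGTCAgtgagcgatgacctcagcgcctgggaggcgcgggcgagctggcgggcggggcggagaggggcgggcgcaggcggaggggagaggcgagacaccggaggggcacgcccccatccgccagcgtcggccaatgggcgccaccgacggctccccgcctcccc
Dusp1 and Btg2 hold the full letters. Fos holds the core alone as TGACG and Nr4a1 as CGTCA. Searched on both strands, with the core also counted inside the full form, TGACGTCA was found in 1.47% and the core in 15.66% of all 32851 such windows. Of the 32 immediate early genes measured, 24 were searched, and 3 of these held the full letters and 11 the core. A match describes the letters only, and nothing here measures binding.

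Fos, a subunit of the AP-1 factor, was 16.43, 16.30 and 11.20 in PDGFRa-GFP replicates 1 to 3 and 10.60, 10.37 and 10.34 in PLP-GFP replicates 1 to 3. Replicates 1 and 2 stood over 5 above replicate 3, which was 0.60 above the highest PLP-GFP library, and the log2 fold change was -4.21 ± 1.29 (SE, n = 3 per group; limma adjusted p = 0.0489). Dusp1, a phosphatase that shuts off MAP kinases, was 14.22, 14.34 and 10.81 in PDGFRa-GFP replicates 1 to 3 and 10.68, 9.99 and 9.73 in PLP-GFP replicates 1 to 3 (-2.99 ± 0.89 (SE, n = 3 per group; limma adjusted p = 0.0448)). Nr4a1, an orphan nuclear receptor, was 12.49, 11.95 and 10.22 in PDGFRa-GFP replicates 1 to 3 and 9.63, 10.01 and 9.97 in PLP-GFP replicates 1 to 3 (-1.69 ± 0.50 (SE, n = 3 per group; limma adjusted p = 0.0436)). In all 3 genes replicate 3 lay just above the PLP-GFP libraries, and only the fit without replicate 3, of the 6 that each left out 1 library, made the calls again.

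Btg2, an antiproliferative gene, was 12.97, 12.95 and 9.34 in PDGFRa-GFP replicates 1 to 3 and 9.34, 9.08 and 9.18 in PLP-GFP replicates 1 to 3 and was not called (adjusted p = 0.104, limma), nor were Junb, Ier2, Fosb, Atf3 and Jun, in which replicate 3 was also near the PLP-GFP libraries. Junb, the AP-1 partner of Fos, was 13.71, 13.86 and 8.92 in PDGFRa-GFP replicates 1 to 3 and 8.68, 8.29 and 8.53 in PLP-GFP replicates 1 to 3. Of the 32 genes, 24 were over 1 above the PLP-GFP mean in replicates 1 and 2, and 6 were in replicate 3. The list made up 0.531% and 0.557% of the summed linear values in replicates 1 and 2, 0.168% in replicate 3 and 0.124% to 0.142% in PLP-GFP libraries. With all libraries 10 were lower and none higher (22 and 0 at an unadjusted p under 0.05 in limma), with a median of -2.08; without replicate 3, 23 were lower, and with PDGFRa-GFP replicate 3 as the only library of its group, 3 were. Leaving out any one of the other 5 libraries left 3 or 4 lower, and removing the length trend left 5.

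A few of these genes did not follow replicates 1 and 2. Klf2, a factor of vessels and blood cells, was 8.88, 7.98 and 8.03 in PDGFRa-GFP replicates 1 to 3 and 5.47, 5.73 and 5.63 in PLP-GFP replicates 1 to 3 (-2.69 ± 0.41 (SE, n = 3 per group; limma adjusted p = 0.00493)). Ctgf, a CCN family matricellular gene, was 7.69, 6.80 and 6.79 in PDGFRa-GFP replicates 1 to 3 and 3.14, 1.57 and 4.02 in PLP-GFP replicates 1 to 3 (-4.18 ± 0.80 (SE, n = 3 per group; limma adjusted p = 0.0108)). Both were about as high in replicate 3 as in replicate 2, and both were called in all 6 fits that left out 1 library. Cyr61 of the same family was in between, at 8.68, 8.97 and 7.03 against 5.63, 4.90 and 5.21 (-2.98), and Sik1, a salt-inducible kinase, had -2.95. Npas4 and Dusp6 were not called, and Rhob and Klf6 ran within 1 of each other in all 6 libraries.

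**Figure D3:**
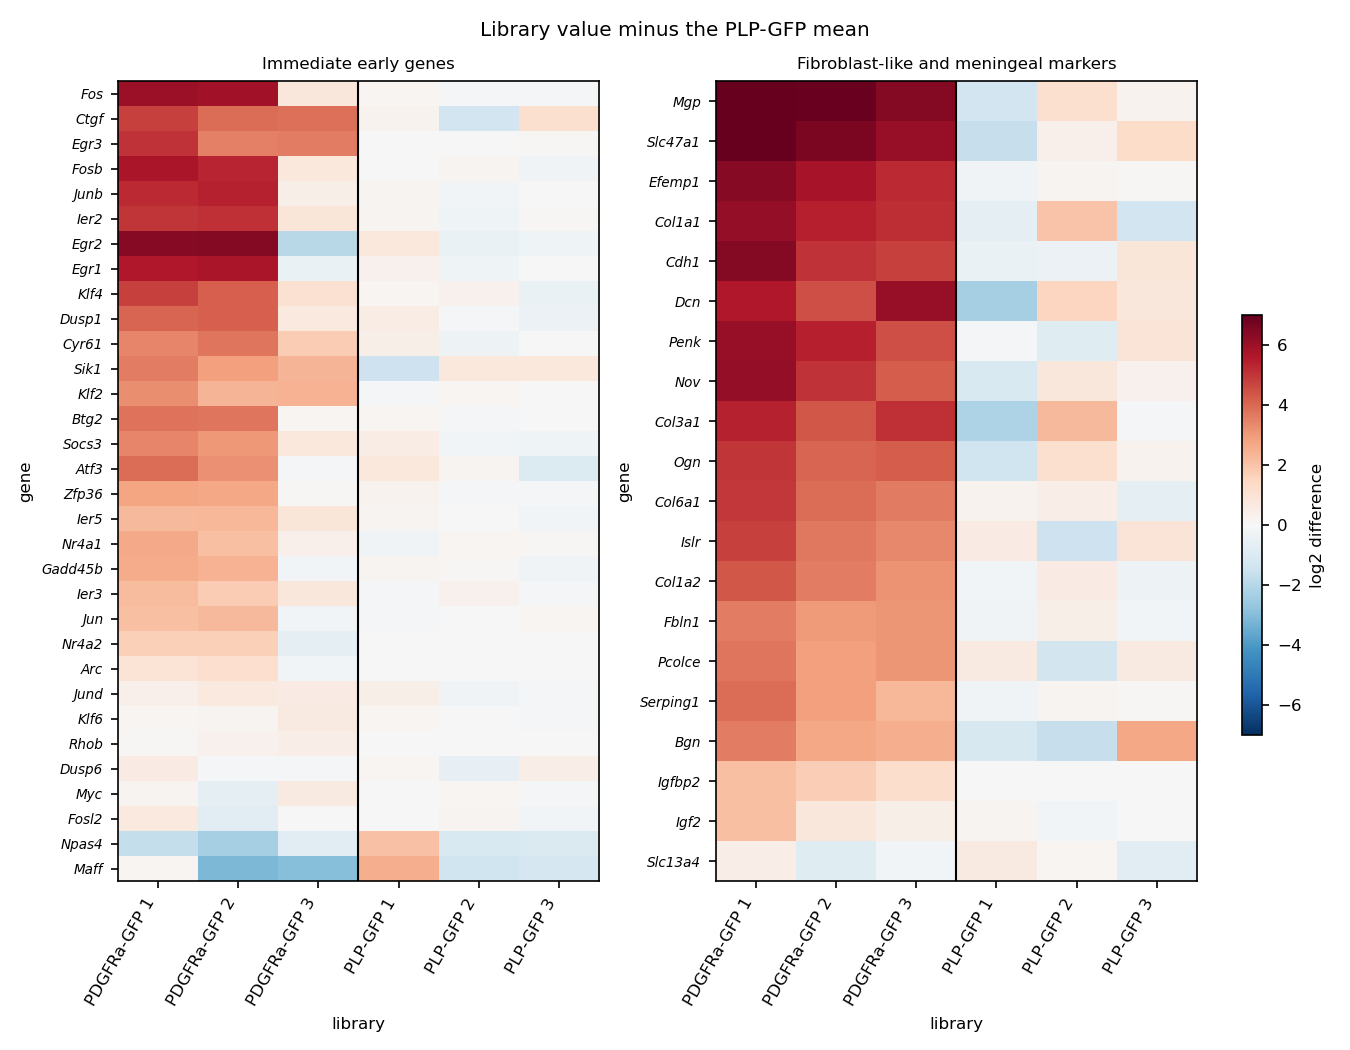
Value of each library (columns) minus the PLP-GFP mean for each gene (rows), as colour on the log2 scale, cut off at 7, for 32 immediate early genes (left) and 20 fibroblast-like and meningeal genes (right). The early genes are red in PDGFRa-GFP replicates 1 and 2 and mostly pale in replicate 3, while the fibroblast-like genes are red in all 3 PDGFRa-GFP libraries.

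Genes with short transcripts tended to be lower and genes with long transcripts higher in PLP-GFP cells. With genes placed in 5 equal groups by their longest transcript, the median difference was -0.39, -0.07, 0.10, 0.25 and 0.32 from the shortest group (204 to 2072 bases) to the longest (5444 to 123179 bases). Of the shortest 2255 genes 509 were lower and 33 higher; of the longest 2253 genes 66 were lower and 422 higher. Replicate 3 of PDGFRa-GFP had the steepest trend, with a median deviation from the gene mean of 0.51 in the shortest group and -0.32 in the longest, against 0.00 and -0.04 in replicate 1. With each library's trend on length removed, 505 genes were higher and 578 lower (4.48% and 5.13% of 11272), and 932 of the 1922 calls kept their call and direction. Counts with the trend removed are therefore given for most groups below.

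**Figure D4:**
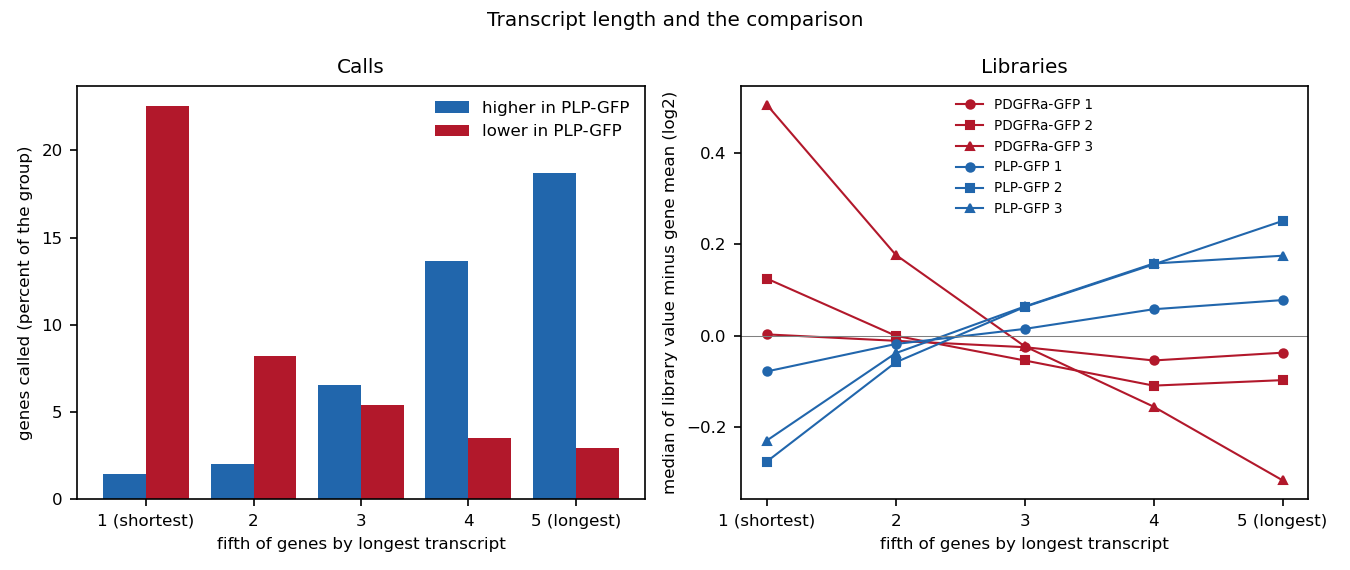
Left, percent of genes called higher (blue) or lower (red) in PLP-GFP cells in 5 equal groups of genes by longest transcript (x axis); right, median over genes of each library's value minus the gene's mean over the 6 libraries, on the log2 scale. Lower calls go from 22.57% of the shortest group to 2.93% of the longest, and higher calls from 1.46% to 18.73%.

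Genes of ribosomal proteins, the respiratory chain and the proteasome tended to be lower in PLP-GFP cells in the deposited values. Other translation genes did not share this. Of 53 genes named as translation initiation factors 2 were higher and 3 lower (median -0.11). Of 18 cytosolic tRNA synthetase genes 1 was higher and 1 lower (median 0.09). Of 91 genes named as cytosolic ribosomal proteins, 9 of which are kinase genes of the Rps6k family, 50 were lower and 2 higher, with a median of -0.84. All 50 encode ribosomal proteins, and the 2 higher are the kinase genes Rps6ka1 and Rps6kc1; 78 of the 91 share sequence with another locus, so their values are uncertain. With the length trend removed 9 were lower and 1, Rps6ka1, was higher (median -0.34). Of 76 mitochondrial ribosomal protein genes 26 were lower and none higher (52 and 0 at an unadjusted p under 0.05 in limma; median -0.55), and 9 were with the trend removed (median -0.26). Of 44 complex I genes 18 were lower (median -0.70), then 6 (median -0.23), and of 46 genes of cytochrome oxidase, the bc1 complex and ATP synthase 23 were lower (median -0.60), then 1 (median -0.14). Of 41 proteasome subunits 14 were lower (median -0.44), then 1 (median -0.16). Replicate 3 stood further from the PLP-GFP mean than replicates 1 and 2 in all 5 groups of ribosomal, respiratory and proteasome genes. The median cytosolic ribosomal protein had 1.36 against 0.61, and complex I had 1.21 against 0.46. Without PLP-GFP replicate 2, 3 cytosolic and 1 mitochondrial ribosomal protein genes and 1 complex I gene were lower. No proteasome gene and no gene of cytochrome oxidase, the bc1 complex or ATP synthase was lower in that fit.

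Some members of these groups were called without the trend too, and others were not. Rpsa, a protein of the small ribosomal subunit, was 12.92, 13.38 and 13.96 in PDGFRa-GFP replicates 1 to 3 and 11.41, 10.81 and 10.83 in PLP-GFP replicates 1 to 3 (-2.40 ± 0.26 (SE, n = 3 per group; limma adjusted p = 0.000881), -2.16 with the trend removed), though its transcript shares sequence with another locus. Ndufa3, a complex I subunit, was 12.94, 13.27 and 13.57 in PDGFRa-GFP replicates 1 to 3 and 12.29, 11.80 and 12.01 in PLP-GFP replicates 1 to 3 (-1.23 ± 0.18 (SE, n = 3 per group; limma adjusted p = 0.00376), then -0.64). Mrpl57, of the large mitochondrial ribosomal subunit, was 10.79, 10.91 and 11.07 against 10.06, 9.91 and 10.11 in the same order (-0.90 ± 0.14 (SE, n = 3 per group; limma adjusted p = 0.00449), then -0.84). These 3 genes were lower in every PLP-GFP library than in any PDGFRa-GFP library. Cox7b, of cytochrome oxidase (-0.72, then -0.21), and Psma7, of the proteasome (-0.73, then -0.38), were called only in the deposited values.

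Several large families had more higher than lower calls. Of 315 zinc finger genes named Zfp, many of which encode DNA-binding repressors, 35 were higher and 3 lower (median 0.29). The higher share, 11.1%, is near the 8.46% of all genes. The lower share, 0.952%, was below the 8.53% of all genes. Without the trend 16 were higher and 3 lower, where 4.48% and 5.13% of all genes were. Without PDGFRa-GFP replicate 3, 65 were higher and 13 lower, where 12.8% and 11.8% of all genes were. Zfp146 was 8.73, 8.50 and 8.52 in PDGFRa-GFP replicates 1 to 3 and 9.85, 9.87 and 9.74 in PLP-GFP replicates 1 to 3 (1.24 ± 0.18 (SE, n = 3 per group; limma adjusted p = 0.0038)), and the 3 lower genes were Zfp14 (-1.67), Zfp277 (-1.31) and Zfp488. Of 44 genes named Usp, ubiquitin proteases but for Usp6nl, 10 were higher and none lower (18 and 2 at an unadjusted p under 0.05 in limma; 4 higher with the trend removed), among them Usp9x, at 12.66, 12.24 and 12.32 in PDGFRa-GFP replicates 1 to 3 and 13.22, 13.71 and 13.53 in PLP-GFP replicates 1 to 3 (1.08, adjusted p = 0.00706, with shared sequence), Usp47 (0.80) and Usp10 (0.67). Of 29 ABC transporters 7 were higher and 1 lower, then 5 and 1, and of 25 kinesins 5 and 1, then 2 and none. The higher shares were 22.7% of the Usp genes, 24.1% of the ABC transporters and 20% of the kinesins. These families have long transcripts, with medians of 4760.5, 5266 and 6295 bases. In length groups 4 and 5 of 5, 13.66% and 18.73% of all genes were higher. Without PLP-GFP replicate 2, 3 Zfp genes and 1 Usp gene were higher. None of the 30 ubiquitin conjugating enzymes was called in limma; at an unadjusted p under 0.05, 2 were higher and 2 lower, and without replicate 3, 4 were called higher.

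Protocadherins, adhesion proteins whose clustered genes give each neuron or glial cell a surface identity, were higher in PLP-GFP cells in both clusters measured. Of 19 gamma protocadherins 8 were higher and 1 lower (median 0.96; 5 and 1 with the length trend removed). Pcdhgb8 was 5.28, 3.64 and 3.77 in PDGFRa-GFP replicates 1 to 3 and 8.61, 9.60 and 8.99 in PLP-GFP replicates 1 to 3 (4.83 ± 0.71 (SE, n = 3 per group; limma adjusted p = 0.0041)). Pcdhga4 was 7.92, 6.60 and 7.29 in PDGFRa-GFP replicates 1 to 3 and 9.99, 10.73 and 10.56 in PLP-GFP replicates 1 to 3 (3.15 ± 0.37 (SE, n = 3 per group; limma adjusted p = 0.00122)). Pcdhga11 was the lower member, at 10.71, 10.22 and 10.16 in PDGFRa-GFP replicates 1 to 3 and 8.96, 9.38 and 8.90 in PLP-GFP replicates 1 to 3 (-1.28 ± 0.20 (SE, n = 3 per group; limma adjusted p = 0.00546)). The groups did not overlap in any of these 3 genes. Genes of the gamma cluster share their last exons, so counts of a single member depend on how reads in those exons were assigned, which is not given in the sources used here.

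Of 17 beta protocadherins, which are genes of a single exon, 6 were higher and none lower (10 and 0 at an unadjusted p under 0.05 in limma), with a median of 1.28; 4 were higher with the length trend removed. Pcdhb20 was 7.60, 7.27 and 8.26 in PDGFRa-GFP replicates 1 to 3 and 8.99, 9.40 and 9.38 in PLP-GFP replicates 1 to 3 (1.55 ± 0.30 (SE, n = 3 per group; limma adjusted p = 0.0107)). Pcdhb11 was 6.03, 4.46 and 5.54 against 7.48, 7.62 and 7.76 in the same order (2.27 ± 0.48 (SE, n = 3 per group; limma adjusted p = 0.0157)), and Pcdhb15 had 2.04. Replicate 3 was nearer to PLP-GFP than replicates 1 and 2 for this cluster: the median member was 1.82 below the PLP-GFP mean in replicates 1 and 2 and 0.09 below it in replicate 3. Pcdhb18 was 6.64, 6.95 and 8.74 in PDGFRa-GFP replicates 1 to 3 and 8.57, 8.93 and 8.86 in PLP-GFP replicates 1 to 3 and was not called (adjusted p = 0.07, limma). Without replicate 3, 12 of the 17 were higher, and with replicate 3 as the only PDGFRa-GFP library 3 were. Without PLP-GFP replicate 2 none was called, and 2 gamma members were higher.

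**Figure D5:**
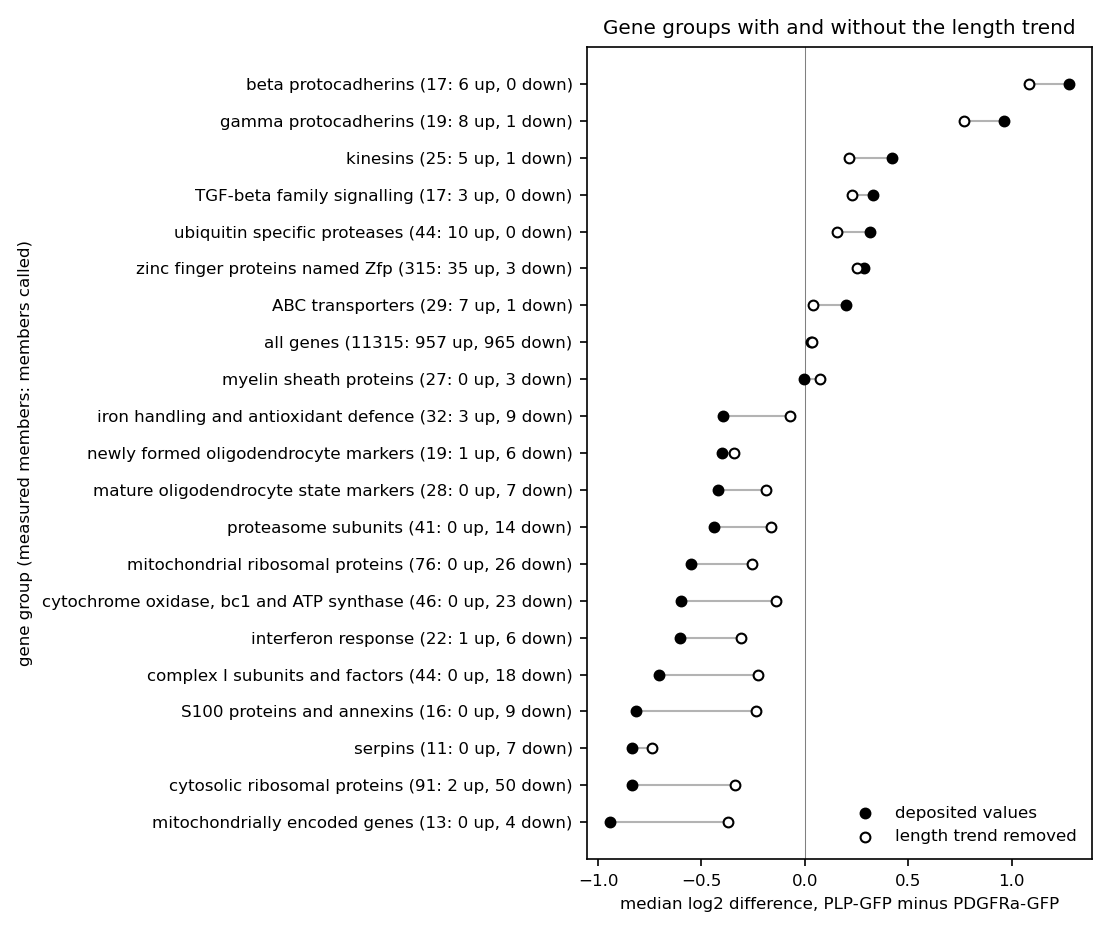
Median log2 difference (x axis) of 20 gene groups and of all genes (rows, with the number measured and called), from the deposited values (filled) and with each library's length trend removed (open). Ribosomal, mitochondrial and proteasome groups move toward 0 without the trend, while the protocadherins stay near 1.

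Receptors and transducers of growth factor and TGF-beta signals gave calls that depended in part on transcript length. Over all genes 8.46% were called higher and 8.53% lower. The median lengths of the 2 lists, 5241 and 5386 bases, fall in length group 4 of 5, where 13.66% of all genes were higher and 3.5% lower. Erbb3, a neuregulin receptor, was 13.64, 13.58 and 12.89 in PDGFRa-GFP replicates 1 to 3 and 14.11, 14.36 and 14.43 in PLP-GFP replicates 1 to 3 (0.92 ± 0.20 (SE, n = 3 per group; limma adjusted p = 0.0171)), and Erbb4 (0.63) and Fgfr2 (0.42) rose less. Of 21 growth factor receptors and feedback inhibitors 5 were higher and 2 lower, the latter Pdgfra and the insulin receptor gene Insr (-0.74), and with the length trend removed 3 and 3 were. Of 17 TGF-beta family genes 3 (17.6%) were higher and none lower (6 and 2 at an unadjusted p under 0.05 in limma). These were the receptor genes Tgfbr1 (0.84) and Acvr2a (1.07) and the transducer gene Smad3, which was 8.43, 8.61 and 8.31 in PDGFRa-GFP replicates 1 to 3 and 10.14, 9.83 and 9.73 in PLP-GFP replicates 1 to 3 (1.45 ± 0.22 (SE, n = 3 per group; limma adjusted p = 0.00493)). The BMP transducer gene Smad5 (0.82), the receptor gene Bmpr1a (0.72) and the Notch ligand gene Dll1 (1.33) were higher, opposite to Bmp4 and the Id genes. With the length trend removed Smad3, Smad5, Dll1 and Erbb3 were called, and Tgfbr1, Acvr2a, Bmpr1a and Erbb4 were not. That left 1 of the 17 TGF-beta family genes, where 4.48% of all genes were higher.

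The 3 sensors of unfolded proteins in the endoplasmic reticulum were higher, and no other of the 21 genes of the unfolded protein and integrated stress response was called. Ern1, which encodes the splicing sensor IRE1, was 8.21, 8.01 and 8.36 in PDGFRa-GFP replicates 1 to 3 and 9.27, 9.42 and 9.37 in PLP-GFP replicates 1 to 3 (1.16 ± 0.21 (SE, n = 3 per group; limma adjusted p = 0.00976)). Atf6, a membrane-bound transcription factor, was 11.72, 11.36 and 10.45 in PDGFRa-GFP replicates 1 to 3 and 12.18, 12.40 and 12.31 in PLP-GFP replicates 1 to 3 (1.12 ± 0.26 (SE, n = 3 per group; limma adjusted p = 0.0217)). Eif2ak3, the kinase PERK, was 11.68, 11.28 and 11.07 against 12.28, 12.26 and 12.24 in the same order (0.92 ± 0.18 (SE, n = 3 per group; limma adjusted p = 0.0117)). The PLP-GFP libraries were all above the PDGFRa-GFP libraries, and the 3 genes were called with the length trend removed (0.87, 0.84 and 0.74). None was called without PLP-GFP replicate 2 or without PLP-GFP replicate 3.

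Enzymes of energy and redox metabolism were called in both directions. Of 24 glycolysis genes, Pfkl, the liver-type phosphofructokinase, was 11.34, 11.03 and 10.82 in PDGFRa-GFP replicates 1 to 3 and 12.41, 12.54 and 12.62 in PLP-GFP replicates 1 to 3 (1.46 ± 0.15 (SE, n = 3 per group; limma adjusted p = 0.000648)) and Eno2 was higher, while Gapdh (-0.95), Eno1 (-0.88), Ldha (-0.91) and Ldhb (-0.49), all with shared sequence, were lower; without the length trend 2 were higher and 2 lower. Of 32 genes of iron handling and antioxidant defence 9 were lower and 3 higher, with the length trend removed 4 and 1, and without PDGFRa-GFP replicate 3, 8 and 5. Fth1, the ferritin heavy chain, was 19.57, 19.71 and 19.71 in PDGFRa-GFP replicates 1 to 3 and 18.84, 19.04 and 19.04 in PLP-GFP replicates 1 to 3 (-0.69 ± 0.13 (SE, n = 3 per group; limma adjusted p = 0.0101)), and the peroxidase genes Gpx4 (-1.02, shared), Prdx2 (-0.89, shared) and Prdx3 (-0.89) were lower. The higher 3 were the thioredoxin reductase gene Txnrd1 (0.64), the iron regulator Ireb2 (0.68) and the iron transporter Slc11a2 (0.44).

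Lipid synthesis gave few calls. Of the cholesterol synthesis genes, Tm7sf2 (-0.88), Mvk (-0.83) and Pmvk (-0.75) were lower, and 1 of the list was with the length trend removed. Of 24 sphingolipid and galactolipid enzymes 3 were higher and 1 lower; with the length trend removed 1 and 1 were, and without PDGFRa-GFP replicate 3, 7 and 2. Among them B4galnt1, which builds complex gangliosides, was 7.79, 7.45 and 7.72 in PDGFRa-GFP replicates 1 to 3 and 9.58, 8.83 and 8.61 in PLP-GFP replicates 1 to 3 (1.35 ± 0.28 (SE, n = 3 per group; limma adjusted p = 0.0148)), Sgms2 had 1.12 and St3gal5, which makes the ganglioside GM3, -0.77. Of 22 interferon response genes 6 were lower and 1 higher, with Oasl2 at -1.78 and Ifit2 at 10.54, 10.22 and 9.89 in PDGFRa-GFP replicates 1 to 3 and 11.31, 11.22 and 11.19 in PLP-GFP replicates 1 to 3 (1.02 ± 0.18 (SE, n = 3 per group; limma adjusted p = 0.00886)); with the length trend removed 1 was lower and 1 higher. Of 28 ion channel genes 4 were higher and none lower (7 and 1 at an unadjusted p under 0.05 in limma), Kcnj10 and, by less, Kcna6 (0.83), Trpc1 (0.68) and Clcn6 (0.64). Without the length trend 2 were higher and 1 lower, and without PDGFRa-GFP replicate 3, 6 and 3 were.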

How the data were processed

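RNA sequencing values for 11315 genes in 6 libraries were compared, 3 per group, with 3 NDRG1-eGFP libraries in the fit. The deposited values are on a log2 scale and were normalized by the authors, per the file headers; the sorted values are nearly the same in each library, as after quantile normalization. BWA, DESeq2 1.2.5 and mm10 are named in the submitters' processing notes, with no step given for any of them. Raw counts were not used here, so depth is unknown, no counting interval is given, and low values are tied.

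All 9 libraries were fitted together, with a term per group, by limma-trend on the deposited values (R 4.3.3, limma 3.58.1). The planned test took logarithms of normalized values, which these values already were, so none was taken. A gene needed a value of 1 or more in 3 libraries to stay in, and 0 genes failed. P-values were two-sided and Benjamini-Hochberg adjusted across the whole table, with calls under 0.05. An exact permutation test of 3 libraries against 3 cannot give p under 0.1 and was not used. The fit was tested on simulated data.

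Longest transcripts, and the share of each gene's 50-base windows that occur at another locus (shared where over 5 percent), were computed from the GENCODE M21 annotation of GRCm38 (mm10); 10929 symbols matched directly and 343 through an older symbol. The length trend was a loess curve (span 0.5) per library. Summed linear values are sums of 2 to the power of the deposited value. 17 rows whose symbol had become a date were not named. Promoter windows came from RefSeq (GRCm38.p6).

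The members, gene lists and families were chosen with earlier results of these data known. The rule for named genes took the 3 reporter genes, of which 1, like a few other results, is not reported here; in each direction the 12 most extreme log2 fold changes and the 12 widest gaps, among called genes whose groups did not overlap, with a mean of at least 10 in the higher group; up to 4 called members per list or family with the smallest adjusted p; and the 10 genes in each direction in which PDGFRa-GFP replicate 3 departed most. Predicted genes, clones, pseudogenes and shared genes were passed over in the rankings. Any other gene was named after its values were seen. Alternatives, run on every count and named gene, were 2 recentrings, filters, added constants, stricter thresholds, robust estimation, a replicate block, only 6 libraries, each library left out, PDGFRa-GFP replicate 3 alone, and length or shared genes removed. Leaving out PDGFRa-GFP replicate 3 and PLP-GFP replicate 1 together was chosen after seeing the data.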

Additional observations from a re-analysis of the deposited data

How the results depend on the processing

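The 957 higher and 965 lower genes became 552 and 514 with only the 6 libraries fitted, 284 and 353 when a log2 fold change of 1 or more in size was also required, 121 and 171 at an adjusted p under 0.01, 505 and 578 with the length trend removed, and 471 and 521 with shared genes also left out. With PDGFRa-GFP replicate 3 alone they were 2163 and 2290, a fit that takes its spread from the other groups. With 1 library left out they ranged from 92 (without PLP-GFP replicate 2) to 1449 (without PDGFRa-GFP replicate 3) higher, and from 186 to 1340 lower. Recentring on the median ratio gave 863 and 1101. The fit with a replicate block gave 338 and 384. Deviations of same-numbered libraries from their group means correlated at -0.177, -0.087 and -0.102, and no library correlated best with its own number. Such deviations cannot show whether libraries shared a day or batch, so pairing remains unknown. Leaving out PDGFRa-GFP replicate 3 and PLP-GFP replicate 1 together gave 1371 and 1411. The remaining settings moved both counts by less than 1.5 times. Of 335 named called genes, direction held in every setting but for Eif1b, a translation initiation factor gene, at 0.01 with the length trend removed. Of these 335, 227 lost their call without PLP-GFP replicate 2 and 9 without PDGFRa-GFP replicate 3. The causes were not tested. Values near the low ties limit the size of differences for fibroblast-like, forkhead and endothelial genes.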
